A study of Homo sapiens with 3 samples.

Results

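The core of domain IV of human 28S ribosomal RNA was examined in an eCLIP data set of METTL5, an enzyme that writes N6-methyladenosine at a single adenosine late in 18S rRNA. In eCLIP, RNA that ultraviolet light has bound to a protein is sequenced after the protein is pulled down. It was defined by position alone, as bases 3585 to 3880 of the 28S of the deposited table, the stretch that follows expansion segment ES27L and holds about helices H64 to H71. These are 296 of the 5070 positions of 28S, or 5.84% of its length, out of 7218 positions on 4 rRNAs. The table held 3 libraries from 293T cells, an established line of human embryonic kidney origin. Both eCLIP libraries came from cells that stably express METTL5 with an HA tag and were immunoprecipitated with anti-HA beads. The single Input library was labelled wild type, so the pulldown and the tagged protein cannot be told apart as differences from Input. The labels give ultraviolet crosslinking at 254 nm and 400 mJ/cm2 for all 3 libraries. They do not say which promoter drives the tagged protein, whether the line is a clone, or whether the eCLIP replicates came from separate cultures, so any p-value measures only the spread between these libraries, which may be technical. No pulldown from untagged cells was analysed here, and RNA that sticks to the beads without METTL5-HA has no measure. The table holds rRNA only, and the cell line could not be checked against marker genes.

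In the ribosome, domain IV of the large-subunit rRNA forms much of the face that meets the small subunit. Its helix H69 reaches across to the decoding region of the small subunit and touches the transfer RNAs, and neighbouring helices take part in bridges that hold the subunits together. Expansion segments such as ES27L are insertions in eukaryotic rRNA that lie at the surface of the ribosome. Positions are counted from 1 at the 5′ end of 28S. Of 5 annotated 28S genes only RNA28SN5 is as long as this 28S. The copies are near-identical, so reads cannot be assigned to one of them. No 28S sequence was used here, so single helices were not placed and the label was not checked against sequence.

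Each value was taken as the number of reads over 1 position, here called depth. This reading is an inference from the match of rises and falls 75 nt apart, given further on, and read equivalents, intervals and rises rest on it. Over all of 28S it averaged 3302 reads in the first eCLIP replicate, 1320 in the second and 6117 in Input. Within the domain IV core it was 843 reads in replicate 1, 242 in replicate 2 and 5817 in Input. The lowest, median and highest depths in the core were 172, 1044 and 1771 reads in replicate 1. They were 35, 213 and 736 reads in replicate 2, and 4656, 5997 and 6282 reads in Input. The eCLIP libraries thus varied 10.3-fold and 21.03-fold along the core, while Input varied 1.35-fold. The highest depths on 28S were 7465, 7672 and 7986 reads in replicate 1, replicate 2 and Input. Whether a depth limit flattened the Input profile was not tested. No position of the core was without reads in any library.

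Set against the other 4774 positions of 28S in the same library, the core stood low in both eCLIP libraries and near the average in Input. Its mean depth was 0.244 times that of the other positions in replicate 1, 0.174 times in replicate 2 and 0.948 times in Input. On the log2 scale the difference between eCLIP and Input in this within-library ratio was -1.96 for replicate 1 and -2.44 for replicate 2. The mean was -2.20 ± 0.344 (SD, n = 2), or 4.60-fold lower. With 2 libraries against 1, the smallest p that an exact permutation test can give is 0.333, so no test was made of this value. The core took 1.49% of summed 28S depth in replicate 1 (exact 95% binomial interval 1.44% to 1.54%), 1.07% in replicate 2 (1.001% to 1.14%) and 5.55% in Input (5.48% to 5.62%). These intervals rest on summed depth divided by a read span of 75 nt, 3325, 953 and 22958 read equivalents, and cover counting error only. PCR copies among the reads would widen the true error.

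By position, 276 of the 296 bases in replicate 1 and 272 in replicate 2 lay below the 25th percentile of 28S depth, against 82 in Input. No base of the core reached the 28S median in either eCLIP library, and 19 did in Input. The median base of the core was deeper than 6.88% of the other 28S positions in replicate 1, 5.15% in replicate 2 and 39.5% in Input. When 28S was divided from the core outward into 17 stretches of 296 nt, the core had the lowest mean depth of all in both eCLIP libraries, while 5 stretches lay below it in Input. Among all 4775 stretches of that length, overlapping ones included, the lowest began at position 3632 in replicate 1 and 3640 in replicate 2, both within the core. In Input the lowest began at 1230, far upstream.

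**Figure D1:**
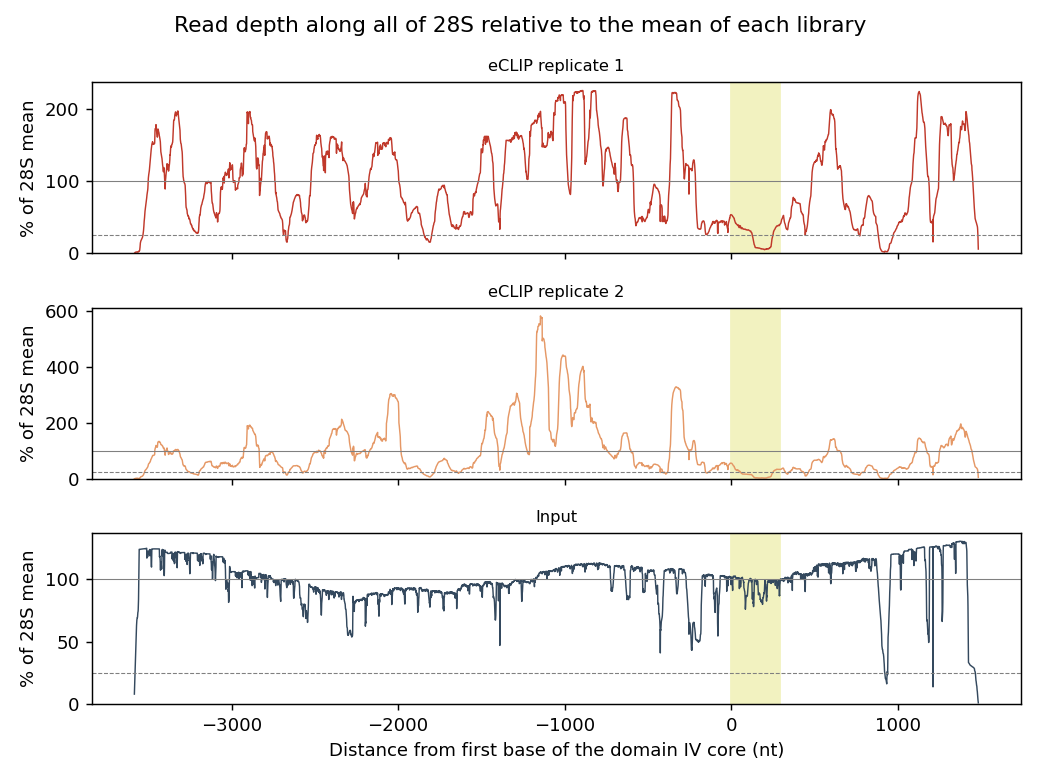
Read depth at each position of 28S as a percentage of the library's own 28S mean, plotted by distance in nt from the first base of the domain IV core (shaded), with 1 panel for each library, a solid line at 100% and a dashed line at 25%. In both eCLIP panels the core lies below 100% throughout and holds the longest stretch under 25%, while Input in the core averages 95.1% of its mean.

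The low depth was not even along the core. In both eCLIP libraries depth declined from its highest value at the first base, 3585, to a trough in the middle and rose again before the 3′ end. The longest run of consecutive 28S bases under 25% of the library's 28S mean lay within the core in each eCLIP library. It ran from 3713 to 3836 in replicate 1 (124 nt) and from 3641 to 3838 in replicate 2 (198 nt). The next longest such runs on 28S, of 90 and 95 nt, lay in domain V, at 4469 to 4558 and 4464 to 4558. Input had no base of the core under 25% or under 50% of its mean.

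At 10% of the 28S mean the trough had almost the same bounds in both replicates, 3729 to 3825 in replicate 1 (97 nt) and 3717 to 3826 in replicate 2 (110 nt). These were again the longest runs of 28S, ahead of runs of 57 and 61 nt. Of all 28S bases under 10% of the mean, 97 of 190 in replicate 1 and 110 of 242 in replicate 2 were in the core. The stretch low in both libraries, 3729 to 3825, had a mean depth of 227 reads in replicate 1 and 51.4 in replicate 2. That is 6.87% and 3.89% of the 28S means. Input had 5641 reads there, 92.2% of its mean, and did not go below 4894. In the 75 nt before the trough the means were 950.4, 187 and 5660 reads in replicate 1, replicate 2 and Input, and in the 75 nt after it 1204, 405 and 6000.0 reads. The trough was thus far below both sides in the eCLIP libraries, while in Input it was close to the level before it.

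The other long stretch of 28S under 10% of the mean in both eCLIP libraries, 4479 to 4534 in domain V, had a different Input profile. Input averaged 2571 reads there, 42.04% of its 28S mean, with a lowest value of 999. Mean eCLIP depths in that stretch were 118 and 35.3 reads. The domain IV trough therefore had low eCLIP depth over near-average Input, and the domain V stretch had low eCLIP depth over low Input. Low eCLIP depth over higher Input was not particular to the trough. The first 50 bases of 28S averaged 7.14% and 3.39% of the 28S means in eCLIP and 86.5% in Input. Input depth there ranged from 496 to 7613 reads. The bounds of the trough and of the domain V stretch were taken from the depths themselves, so these values are a description.

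**Figure D2:**
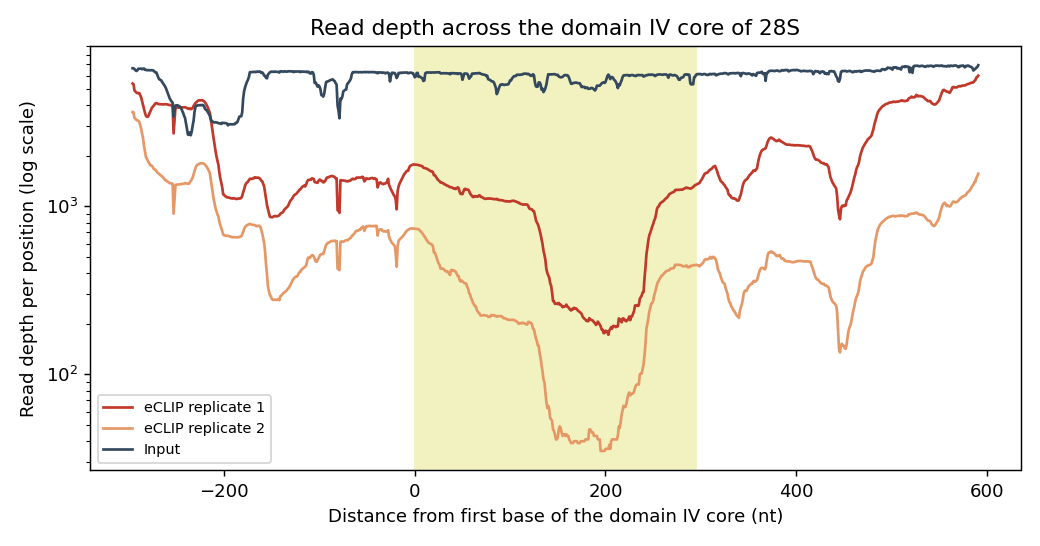
Read depth per position on a log scale against distance in nt from the first base of the domain IV core (shaded), with 296 nt on either side, as 1 line for each library. The eCLIP lines fall from 1771 and 736 reads at the first base of the core to 172 and 35, while Input stays between 4656 and 6282.

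The deepest point of the trough fell near the same base in both eCLIP libraries. Replicate 1 had its lowest depth of the core, 172 reads, at position 3788. Replicate 2 had its lowest, 35 reads, over 5 adjacent bases from 3780 to 3784, and 36 reads at 3788. Input depth at 3788 was 6079 reads, close to its maximum in the core. Its own minimum of 4656 reads lay at 3671, outside the trough, where the eCLIP libraries had 1107 and 220 reads. Scaled by TMM, edgeR's trimmed mean of log ratios, the log2 ratio to Input was lowest at 3788 in both replicates, at -3.61 and -4.12. It was below -3 at 71 positions of the core in replicate 1 and 90 in replicate 2, and below 0 at all 296 in replicate 1 and 284 in replicate 2.

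Position 3782, in the trough, is the cytosine that NSUN5 methylates at carbon 5 in human 28S, placed here by its distance to the last base. Replicate 1 had 185 reads over it, replicate 2 had 35 and Input had 5443, and the 51 nt around it had a log2 ratio of -3.45 ± 0.332 (SD, n = 2).

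The windows were tested to ask where in the core eCLIP differed from Input, given a spread taken from the eCLIP replicates. The prior degrees of freedom were infinite, so this spread was shared across windows and not measured for each alone. The single Input library gives no spread of its own. The test was edgeR's quasi-likelihood test on depth summed in windows of 50 nt over all 4 rRNAs, 147 windows, with TMM scaling and Benjamini-Hochberg adjustment. For 6 windows the middle lies in the core, and the last of them runs 20 bases past its end. The first 16 bases of the core, 3585 to 3600, lie in none of the 6. They fall in the window from 3551 to 3600, which was not called (edgeR log2 fold change -0.17). Of the 6, 4 were lower in eCLIP at an adjusted p under 0.05 and none was higher. Among all windows 34.7% were called lower and 3.4% higher, and among the 102 windows of 28S 11.8% were lower and 4.9% higher. DESeq2 called 5 of the 6 lower and none higher, where it called 38.1% of all windows lower and 35.4% higher. All 6 edgeR log2 fold changes were negative, so none of the 6 could be called higher at any threshold. The median log2 fold change of the 6 windows was -1.46, against 0.79 for the other 96 windows of 28S and -0.16 for all windows. With windows shifted by 25 nt, which take in the first bases of the core, the median was -1.11 in the core. It was 0.72 for the other windows of 28S.

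The window from 3751 to 3800 had the lowest log2 fold change of all 102 windows of 28S, and the lowest ratio in each replicate taken alone. Depth there averaged 206 reads in replicate 1, 40.5 in replicate 2 and 5352 in Input. That is 6.25% and 3.07% of the 28S means in eCLIP and 87.5% in Input. The log2 ratios were -3.17 and -3.77, with a mean of -3.47 ± 0.425 (SD, n = 2), or 11.1-fold lower (edgeR adjusted p = 6.47e-10). The lowest fold changes on 28S outside the core were -3.25 at its first 50 bases and -2.15 at 4501 to 4550.

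The windows on either side of it also passed. Between 3701 and 3750 depth averaged 520.2 reads in replicate 1, 96.9 in replicate 2 and 5766 in Input. Its log2 ratios were -1.95 and -2.62, a mean of -2.28 ± 0.478 (SD, n = 2; edgeR adjusted p = 1.28e-05). This window is the downward side of the trough, with depths between 1027 and 240 reads in replicate 1 and between 205 and 39 in replicate 2. Between 3801 and 3850 depth averaged 548 reads in replicate 1, 194 in replicate 2 and 6016 in Input. Its log2 ratios were -1.93 and -1.68, a mean of -1.81 ± 0.177 (SD, n = 2; edgeR adjusted p = 0.000274). This window is the upward side of the trough, with depths from 204 to 1135 reads in replicate 1 and from 52 to 415 in replicate 2.

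The window from 3651 to 3700 was the least changed of the 4. Its mean depths were 1089, 217 and 5701 reads, and its log2 ratios -0.86 and -1.44, a mean of -1.15 ± 0.411 (SD, n = 2; edgeR adjusted p = 0.0247). It did not pass when scaled to library totals (edgeR adjusted p = 0.106), where 30.6% of all windows were lower. Nor did it when the middle position stood for the window (edgeR adjusted p = 0.051), where 36.1% were lower and 4.76% higher. The outer windows of the core did not pass. At 3601 to 3650 mean depths were 1319, 399 and 6157 reads with log2 ratios of -0.70 and -0.67 (edgeR adjusted p = 0.154), and this window passed with DESeq2 (log2 fold change -0.52, adjusted p = 0.00249). At 3851 to 3900 mean depths were 1378, 453 and 5972 reads with log2 ratios of -0.59 and -0.45 (edgeR adjusted p = 0.257).

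**Figure D3:**
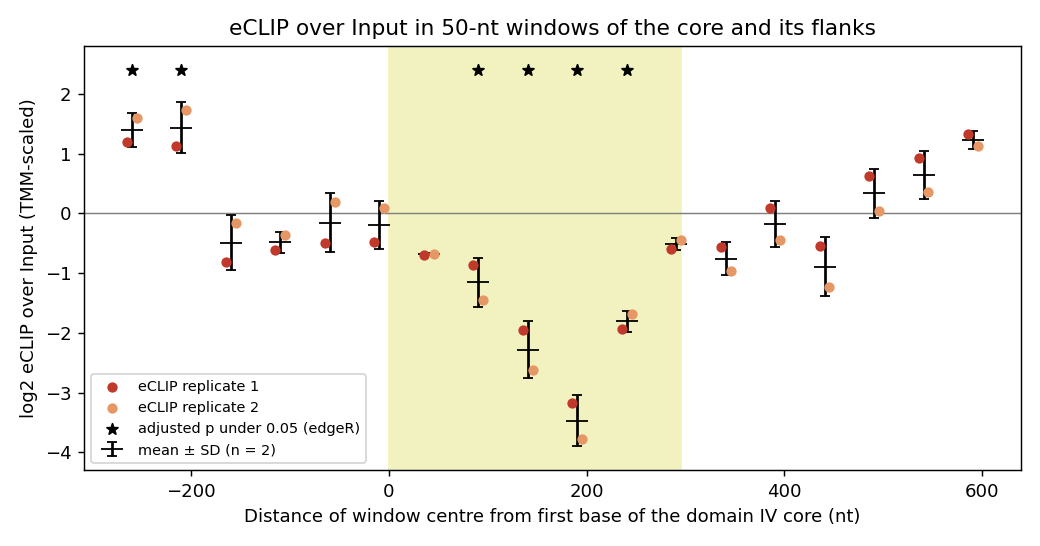
TMM-scaled log2 ratio of eCLIP to Input in windows of 50 nt, by distance of the window's centre in nt from the first base of the domain IV core (shaded), with points for the 2 replicates, bars for their mean ± SD and stars for windows with an edgeR adjusted p under 0.05. The ratio reaches -3.47 at 3751 to 3800. The 4 starred windows of the core are adjacent, and neighbouring windows share reads.

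In windows of 25 nt, 8 of 12 in the core were lower and none was higher, against 36.6% and 7.59% of the 290 windows in the table. The 8 were adjacent, from 3651 to 3850. With a read span of 75 nt a read counts in several neighbouring windows of 25 nt, so these calls are not independent. The edgeR log2 fold change was -1.59 at 3701 to 3725 and -3.26 at 3726 to 3750. It stayed near that level at 3751 to 3775 (-3.29), 3776 to 3800 (-3.54) and 3801 to 3825 (-3.003), and was -1.13 at 3826 to 3850. With the replicates fitted together, the trough therefore had a nearly level floor of 4 such windows with a sharp change on either side. By position the floor was less level. The log2 ratio went from -3.61 at 3788 to -2.73 at 3825 in replicate 1 and from -4.12 to -2.41 in replicate 2. In windows of 100 nt, 2 of 3 in the core were lower, against 33.8% of windows in all.

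The overall level of the ratios depends on how the libraries are scaled, and the low ratios of the core were also tested against 28S itself. With the libraries scaled to their 28S totals, the same 4 windows were lower, as were 34.7% of all windows, with an edgeR adjusted p of 0.0347 at 3651 to 3700, 0.00119 at 3701 to 3750, 3.18e-05 at 3751 to 3800 and 0.00351 at 3801 to 3850. With the 102 windows of 28S fitted alone, those 4 were again called, among 11.8% of windows lower and 2.94% higher. Every base of the core had 4000 or more reads in Input, as did 94.6% of the other 28S positions, and no library had a depth above 7986 anywhere. Whether Input depth was limited at this level was not tested. The highest eCLIP depths in the core were 1771 and 736 reads, while the other 28S positions reached 7465 and 7672, with 41.2% and 5.11% of them at 4000 or more.

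The stretches of equal length on either side were less low. Before the core, at 3289 to 3584 in and around the end of ES27L, mean depth was 0.608 and 0.68 times that of the 28S positions outside the core in eCLIP and 0.868 times in Input. After it, at 3881 to 4176, it was 0.816 and 0.428 times in eCLIP and 1.05 times in Input. Of the 12 windows of these flanks, edgeR called none lower and 2 higher, against 34.7% lower and 3.4% higher among all windows. The higher ones were 3301 to 3350 and 3351 to 3400 (edgeR adjusted p = 0.0335 and 0.00169), and neither passed when the 28S total or the library total set the scale. Before adjustment 1 flank window was lower at p under 0.05. DESeq2 called 2 lower and 4 higher, against 38.1% and 35.4% of all windows. With the middle position edgeR called 2 lower and 2 higher, against 36.1% and 4.76% of all windows. The log2 ratio of mean depth in the core to that in both flanks differed between eCLIP and Input by -1.53 in replicate 1 and -1.65 in replicate 2.

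The eCLIP replicates had like profiles along the core but not the same level. Across its 296 positions log2 depth correlated between the replicates (Pearson's r = 0.960, Spearman's rho = 0.948). Neighbouring positions share reads, so these are descriptions without a test. The correlation with Input was 0.389 for replicate 1 and 0.463 for replicate 2 (Pearson's r). Over all of 28S, replicate 1 had 2.501 times the depth of replicate 2. In the core this ratio was 3.305 at 3601 to 3650, 5.02 at 3651 to 3700, 5.37 at 3701 to 3750 and 5.098 at 3751 to 3800. It was 2.82 at 3801 to 3850 and 3.04 at 3851 to 3900. Replicate 2 was therefore lower, relative to its own 28S mean, in all 6 windows, and most so from the second to the fourth. This depends on the scale. With TMM scaling the log2 ratio to Input was lower in replicate 2 only from the second to the fourth window. It was higher in replicate 2 at 3601 to 3650 (-0.67 against -0.70), 3801 to 3850 (-1.68 against -1.93) and 3851 to 3900 (-0.45 against -0.59).

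Depth rises at a base where more reads begin than end. Within the core, rises were best matched by falls 75 nt later in all 3 libraries, among distances of 20 to 200 nt, with correlations across positions of 0.701, 0.718 and 0.702 in replicate 1, replicate 2 and Input. Summed rises in depth, a lower bound on the number of reads that began there, came to 1501 reads in replicate 1, 523 in replicate 2 and 10943 in Input. That was 1.14% and 0.892% of the rises along 28S in eCLIP and 6.19% in Input, where the core is 5.84% of the length. Rises averaged 5.07 and 1.77 reads per nt in the core against 27.3 and 12.2 elsewhere on 28S in eCLIP. In Input they averaged 37.0 and 34.8.

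Most rises in the core lay at its 3′ side. Positions 3801 to 3850 held rises of 953 reads in replicate 1 and 371 in replicate 2, or 63.5% and 70.9% of the rises in the core, against 12.3% in Input. The last 30 bases of the core, 3851 to 3880, held 237 and 56 reads. The 3 windows from 3651 to 3800 held 59, 22 and 79 reads in replicate 1 and 13, 19 and 25 in replicate 2. Input had rises of 1677, 2141 and 1911 reads in those same 3 windows. Summed rises were thus small between 3651 and 3800 in eCLIP and larger in each of these windows in Input. They are not a net gain, since Input depth went from 6212 reads at 3651 to 5255 at 3800.

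The largest single rise of the core was at position 3828 in both eCLIP libraries, just after the trough. Depth went from 434 to 519 reads in replicate 1 and from 153 to 187 in replicate 2, with falls of 79 and 31 reads found 75 nt later, at 3903. Input went from 6006 to 6039 reads at that base. The next largest rises were at 3839 and 3826 in replicate 1 (71 and 66 reads) and at 3623 and 3827 in replicate 2 (27 and 23 reads). At 3623 replicate 1 changed by -1 read, so that rise was not shared. The largest single fall was at 3605 in both, from 1600 to 1535 reads in replicate 1 and from 579 to 533 in replicate 2, while Input went from 6264 to 6254. The next falls, at 3632 and 3712 in replicate 1 and 3612 and 3609 in replicate 2, were of 64, 56, 22 and 21 reads. At 3712 Input fell by 297 reads.

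**Figure D4:**
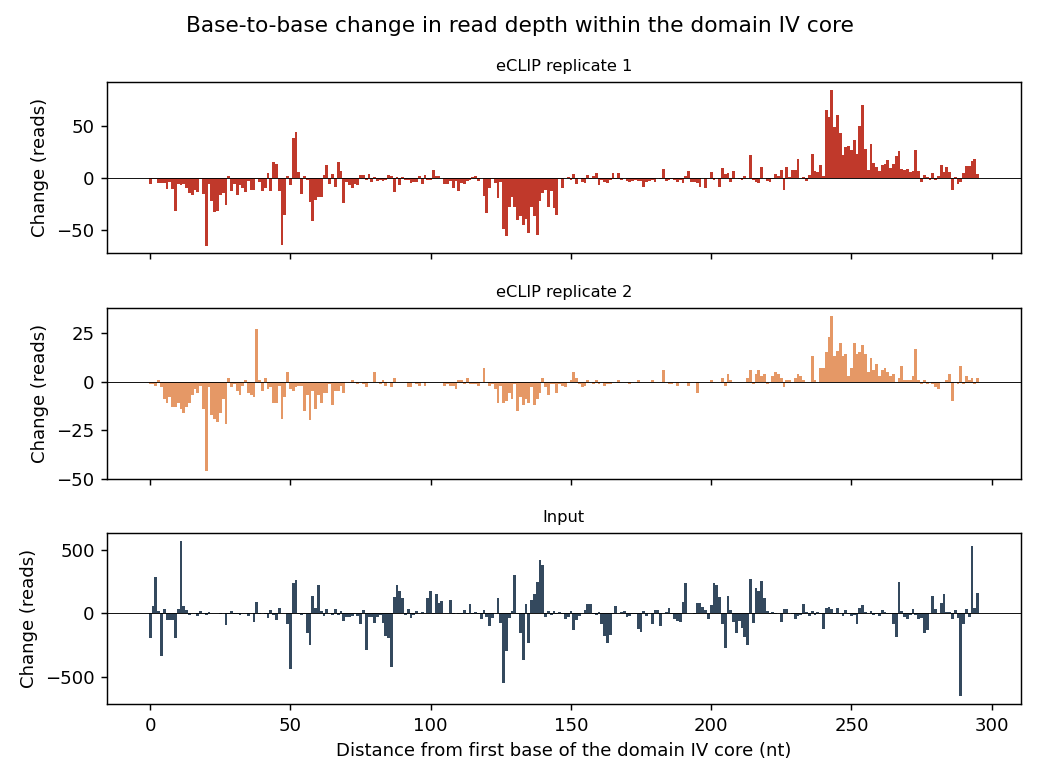
Change in depth from the base before, in reads, at each base of the domain IV core, by distance in nt from its first base, with 1 panel and 1 vertical scale for each library. Both eCLIP panels show falls near the start and before the trough and a cluster of rises after it, with the highest rise of 85 and 34 reads at the same base, while Input changes in both directions along the whole core.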

How the data were processed

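The members of the core and the choice of tests were made with earlier results of these data known. The authors deposited raw counts for each position of 4 rRNAs in 3 libraries, per the file headers, and no value column was left out. STAR and the build hg19 are listed in the submitters' processing notes, with no version or role. No source used here says how depth was counted or whether duplicates were removed. Library totals were 17574237 and 6930845 for the eCLIP replicates and 42783485 for Input. Columns IP1 and IP2 were read as eCLIP replicates 1 and 2. Counts were summed in windows of 50 nt from position 1 of each rRNA, so a read counts at each position it covers and neighbouring windows share reads. edgeR 4.0.16 (R 4.3.3) fitted all windows with TMM and filterByExpr, with 1 residual degree of freedom. The fit takes its spread from the 2 eCLIP libraries, and its prior degrees of freedom were infinite. DESeq2 1.42.0 was an alternative. For the ratio of each replicate to Input, 1 count was added after TMM scaling. Windows were assigned to the core by their middle. Named were all 6 windows, the extremes of depth, the 3 largest steps in each direction per eCLIP library, the NSUN5 residue, and the flanks of equal length. The bounds of the troughs were taken from the depths.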

Additional observations from a re-analysis of the deposited data

How the results depend on the processing

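The log2 ratio of the core, -1.29 with TMM, depended on scaling: it was -1.73 with library totals, -1.12 with DESeq2 size factors, -2.14 with the 28S total and -1.52 with the 5S total. The median of all windows moved along, from -0.16 to -0.58, 0.0057, -0.98 and -0.38, and relative to it the core stayed between -1.16 and -1.13. A change of scale shifts all windows by nearly the same amount, so this constancy follows from the calculation and is no test of the core. The ratio was -1.61 with the core narrowed by 25 nt at each end, -1.10 with it widened, -3.42 at its middle position alone, and -1.32 to -1.26 with 1 eCLIP replicate left out. The difference between core and rest of 28S, -2.20, was -1.59 against the equal-length flanks, -1.85 with median depths, and -2.44 to -1.96 with 1 replicate left out. Lower windows numbered 3 to 5 of 6 under the other scalings and tests, the middle position, 28S alone and a shift of 25 nt. They were 8 of 12 with 25 nt and 2 of 3 with 100 nt. Among all windows, 45 to 56 of 147 were lower under the scalings, tests, middle position and shift. With 28S alone 12 of 102 were lower, with 25 nt 36.6% and with 100 nt 33.8%. The run of low depth, 161 nt on average at 25% of the 28S mean, was 384.5 nt at 50% and 103.5 nt at 10%. At 50% it differed between replicates and passed the end of the core. It ran from 3600 to 3894 (295 nt) in replicate 1 and from 3596 to 4069 (474 nt) in replicate 2. Of 48 results for single windows under 8 settings, 45 kept direction and call, 2 lost the call and 1 gained it. The count filter removed no window, so 1 of the 8 settings, the one without it, could not differ from the main result. The causes were not tested. With 1 eCLIP library against 1 Input no residual degree of freedom remains, so windows were not tested that way. No paired analysis was possible because the only Input library carries no number that pairs it with an eCLIP library. Depth limits the trough in replicate 2, at 35 to 115 reads.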
